A study of Mus musculus with 8 samples.

Results

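A group of 8 hepatic genes of fatty acid oxidation, commonly used as readouts of the nuclear receptor PPAR alpha, was examined: Cpt1a, Cpt2, Acadm, Acadl, Ehhadh, Acaa1b, Pdk4 and Vnn1. They were listed by symbol, with earlier results of these data known, and make up 8 of the 24940 genes in the deposited count table. All 8 passed the expression filter, as did 12340 genes in all. In BCL6LKOFXRKO livers, compared with FXRKO livers, Cpt1a and Acadm were lower in every liver and Pdk4 was higher in every liver, while the livers of the 2 genotypes overlapped for the other 5 genes.

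PPAR alpha is a fatty acid-activated nuclear receptor that binds DNA with RXR and switches on fat burning in the fasted liver. Long-chain fatty acids enter mitochondria as carnitine esters and are shortened there by β-oxidation, whereas very long-chain and dicarboxylic fatty acids are first shortened in peroxisomes. BCL6 is a transcriptional repressor known in liver for holding down PPAR alpha target genes.

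The livers came from male C57BL/6 mice. Both genotypes carried homozygous floxed Bcl6 and lacked Fxr (Nr1h4), the bile acid receptor, in the whole body. FXRKO mice (4 livers, labelled Bcl6(fl/fl), FXR(homo)) had no Cre, and BCL6LKOFXRKO mice (4 livers) had Alb-Cre in addition, which is driven by the Albumin promoter and deletes Bcl6 in hepatocytes. Because Alb-Cre was present in the BCL6LKOFXRKO livers alone, loss of Bcl6 and presence of Cre cannot be told apart. The paper also reports higher bile acids in serum and liver, and more collagen staining, in BCL6LKOFXRKO than in FXRKO males. The part of this cholestatic damage in the levels of the 8 genes was not tested. The age of the mice was not given in the sources used here. The study's methods state that, where nothing else is given, mice were either freely fed or briefly fasted, without saying which held for these livers, and several of the 8 genes respond to fasting. Livers with intact Fxr were not analysed here, so every difference below was measured in the absence of Fxr.

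Between 7586241 and 11839503 reads were counted on genes per liver. A count of 3, taken as the limit of detection, corresponded to 0.272 to 0.375 CPM (read counts scaled to a common library size with TMM factors), which covers counting error only. Bcl6 was at 21.2 to 65.2 CPM in FXRKO livers and at 4.61 to 11.9 CPM in BCL6LKOFXRKO livers, so the targeted gene followed the labels. Nr1h4 was still counted, at 56.7 to 62.6 CPM in FXRKO and 39.4 to 48.1 CPM in BCL6LKOFXRKO livers, and since reads were summed over all its exons this does not check the Fxr label. The most abundant transcripts also differed: Alb alone took 4.04% to 5.16% of all counts in FXRKO livers and 11.9% to 13.2% in BCL6LKOFXRKO livers. Scaling by total counts alone, in place of TMM, moved the median log2 fold change of all genes by -0.16, and the share of called genes that were higher went from 54.5% to 32.3%. In bulk tissue, fewer cells of one type and less RNA per cell cannot be told apart.

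Of the 8 genes, 1 rose (Pdk4), 3 fell (Cpt1a, Acadm and Vnn1) and 4 did not pass the test at an adjusted p under 0.05 (edgeR quasi-likelihood test, Benjamini-Hochberg adjustment over 12340 genes). For comparison, 16.2% of all tested genes were called higher and 13.5% were called lower. By complete separation of the livers, 1 gene was higher (16.1% of all tested genes) and 2 were lower (15.2% of all tested genes). The median log2 fold change of the 8 genes was -0.29, with 6 of 8 negative, against 0.01 over all tested genes. With total counts alone the number of genes called lower became 6, since Acaa1b, Acadl and Cpt2 then passed the test, and Pdk4 was still the 1 gene called higher. Leaving out single livers gave 2 to 4 genes called lower. Without BCL6LKOFXRKO liver 2, Ehhadh joined Pdk4 and 2 genes were called higher.

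**Figure D1:**
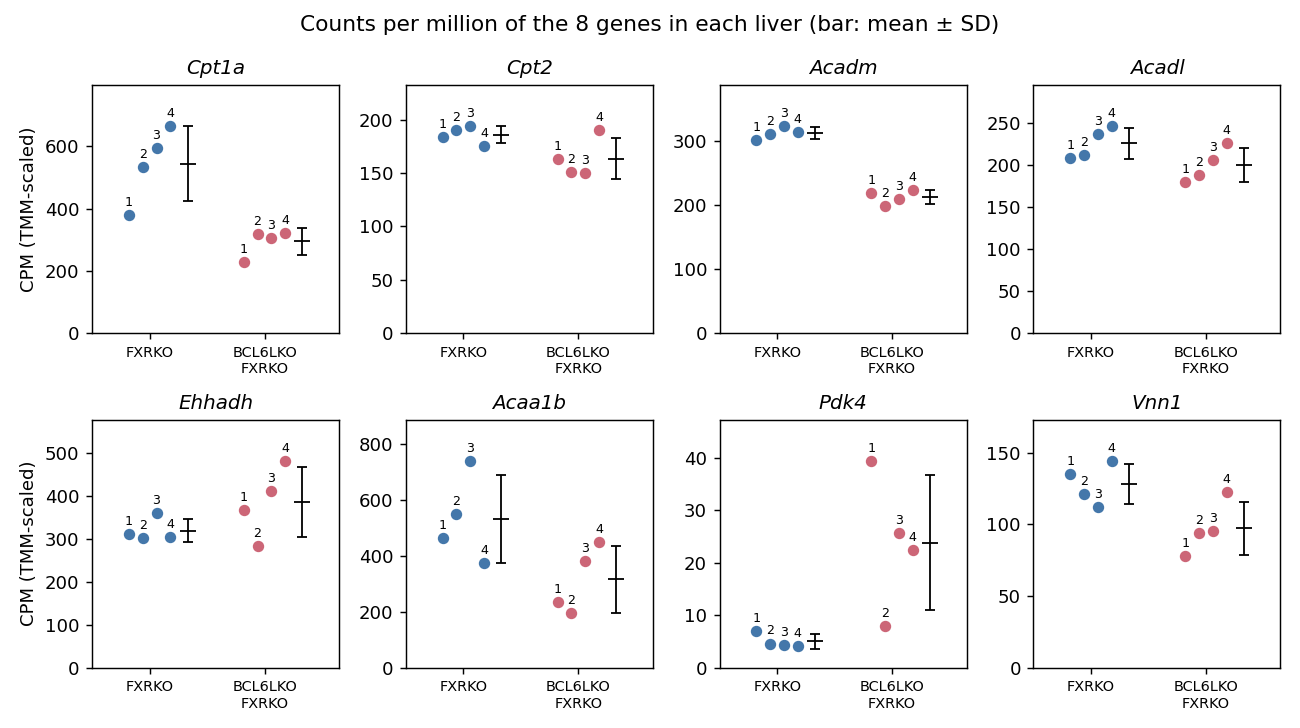
CPM (TMM-scaled, linear axes from 0) of the 8 genes in each liver, with points numbered by liver and bars for the mean ± SD of 4 livers. Acadm and Cpt1a sit lower in all BCL6LKOFXRKO livers, Pdk4 spreads from 7.89 to 39.4 CPM above FXRKO livers at 4.07 to 7.08 CPM, and the groups overlap for the other genes.

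The entry of long-chain fatty acids into mitochondria is carried out by Cpt1a, the rate-limiting acyltransferase of the outer membrane, and by Cpt2, its partner on the inner membrane. Cpt1a (NM_013495, mm10 chromosome 19 from 3323301 to 3385733, plus strand) was at 381, 535, 595 and 665 CPM in FXRKO livers 1 to 4 and at 229.7, 318, 307 and 323 CPM in BCL6LKOFXRKO livers 1 to 4. Even the lowest FXRKO liver was above the highest BCL6LKOFXRKO liver, although the FXRKO livers themselves were spread 1.75-fold. The means were 544 ± 121 and 294 ± 43.6 CPM (SD, n = 4 each), with a log2 fold change of -0.89 (SE 0.17, adjusted p = 0.00183 by edgeR with Benjamini-Hochberg adjustment). The exact permutation p, both sides counted, was 0.0286, the smallest that 4 against 4 livers allow.

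Cpt2 (NM_009949, chromosome 4 from 107903982 to 107923589, minus strand) was at 184, 190.1, 194 and 176 CPM in FXRKO livers and at 163, 151, 149.7 and 190.5 CPM in BCL6LKOFXRKO livers. Here 3 of the 4 BCL6LKOFXRKO livers were below all FXRKO livers, and liver 4 lay among them. The means of 186 ± 7.97 and 164 ± 18.9 CPM (SD, n = 4 each) gave a log2 fold change of -0.18 (SE 0.11), which did not pass the test (adjusted p = 0.233, edgeR with Benjamini-Hochberg adjustment). Without BCL6LKOFXRKO liver 4 it was -0.26 and passed (adjusted p = 0.0424, edgeR), as it did with total counts alone (-0.34, adjusted p = 0.0318). Transcripts of Cpt1a were lower in every BCL6LKOFXRKO liver, while those of Cpt2 overlapped between the genotypes.

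The first dehydrogenation of each β-oxidation round is carried out in the mitochondrial matrix by acyl-CoA dehydrogenases, Acadm for medium-chain and Acadl for long-chain substrates. Acadm (NM_007382, chromosome 3 from 153922353 to 153944643, minus strand) was at 302, 311, 324 and 315 CPM in FXRKO livers and at 219, 199, 210.4 and 225 CPM in BCL6LKOFXRKO livers. It was the least variable of the 8 genes, with a coefficient of variation of 2.88% in FXRKO and 5.30% in BCL6LKOFXRKO livers, and the groups were far apart. The means were 313 ± 9.03 and 213 ± 11.3 CPM (SD, n = 4 each), a log2 fold change of -0.55 (SE 0.10, adjusted p = 0.00120, edgeR with Benjamini-Hochberg adjustment).

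Acadl (NM_007381, chromosome 1 from 66830839 to 66863309, minus strand) was at 209, 212, 238 and 246 CPM in FXRKO livers and at 180.1, 188, 206 and 227 CPM in BCL6LKOFXRKO livers. The lower pair of FXRKO livers fell within the range of the BCL6LKOFXRKO livers. The log2 fold change was -0.18 (SE 0.11) and did not pass the test (226 ± 18.5 against 200.4 ± 20.7 CPM, SD, n = 4 each, adjusted p = 0.269, edgeR). It was -0.34 with total counts alone and then passed (adjusted p = 0.0405). The other acyl-CoA dehydrogenases of this step did not pass the test either: the log2 fold change was -0.09 for the short-chain enzyme Acads and 0.10 for the very long-chain enzyme Acadvl. Summed per kilobase of transcript over the 4 enzymes, Acadm made up 24.9% to 25.6% in FXRKO livers and 16.7% to 20.6% in BCL6LKOFXRKO livers, without overlap. The comparison with its family was chosen after the values were seen and was not tested.

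The promoters of Cpt1a, Acadm and Pdk4, the genes whose livers did not overlap, are printed so that the letters of the PPAR alpha element can be looked for in them. RefSeq promoter windows (GRCm38.p6) were found for 7 of the 8 genes, Vnn1 being without an entry, and in all 7 the RefSeq start was the start of the deposited transcript. The 250 bases before the start are given 5′ to 3′ along the gene, with a match to the half-site AGGTCA on either strand in capitals. They lie at chr19:3323051-3323300 on the plus strand (Cpt1a), chr3:153944644-153944893 on the minus strand (Acadm) and chr6:5496279-5496528 on the minus strand (Pdk4).
Cpt1a: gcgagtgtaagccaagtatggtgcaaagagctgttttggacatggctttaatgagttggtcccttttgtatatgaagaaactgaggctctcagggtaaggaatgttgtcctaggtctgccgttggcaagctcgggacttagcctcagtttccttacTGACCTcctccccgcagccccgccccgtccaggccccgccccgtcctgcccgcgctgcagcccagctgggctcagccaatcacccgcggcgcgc
Acadm: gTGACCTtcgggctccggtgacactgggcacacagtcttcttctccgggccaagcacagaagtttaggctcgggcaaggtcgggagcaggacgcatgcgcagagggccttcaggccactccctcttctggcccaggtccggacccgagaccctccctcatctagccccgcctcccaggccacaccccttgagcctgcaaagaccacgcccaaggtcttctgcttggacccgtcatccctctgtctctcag
Pdk4: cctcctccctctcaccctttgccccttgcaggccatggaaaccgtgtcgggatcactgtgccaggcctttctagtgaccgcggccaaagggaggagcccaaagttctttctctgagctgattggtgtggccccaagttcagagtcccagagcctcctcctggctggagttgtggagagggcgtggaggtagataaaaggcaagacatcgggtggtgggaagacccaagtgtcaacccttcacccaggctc

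The half-site AGGTCA, in its reverse orientation TGACCT, was found 94 to 89 bases upstream of the start of Cpt1a and 249 to 244 bases before that of Acadm, and in none of the other 5 windows. It is also held by 14% of the 32841 RefSeq promoter windows of the same length. A direct repeat of this half-site with 1 base between the repeats, the form bound by PPAR alpha with RXR, was in 0 of the 7 windows with up to 2 mismatches and in 3.24% of all windows. The letters TTCNNNGAA, the core element of STAT5, a factor at whose sites BCL6 is known to bind in liver, were in 1 of the 7 windows, as TTCTGTGAA 200 to 192 bases before the start of Cpt2, and in 7.02% of all windows. These matches are a description of letters. A window without a match says only that the letters are not in it, and enhancers farther away were not searched.

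In peroxisomes, Ehhadh encodes the bifunctional enzyme that performs the hydration and second oxidation steps, and Acaa1b encodes a thiolase that performs the final cleavage. Ehhadh (NM_023737, chromosome 16 from 21761285 to 21787834, minus strand) was at 310.3, 301, 359 and 305 CPM in FXRKO livers and at 367, 284, 411 and 481 CPM in BCL6LKOFXRKO livers. It was, beside Pdk4, the other gene with a positive log2 fold change (0.27, SE 0.15), and it did not pass the test (319 ± 27.1 against 386 ± 82.4 CPM, SD, n = 4 each, adjusted p = 0.190, edgeR with Benjamini-Hochberg adjustment). Of the BCL6LKOFXRKO livers, 3 were above all FXRKO livers and liver 2 was below them. The log2 fold change was 0.38 without liver 2 (adjusted p = 0.0383, edgeR), 0.15 without liver 4 (adjusted p = 0.420) and 0.12 with total counts alone (adjusted p = 0.589).

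Hsd17b4, the other peroxisomal bifunctional enzyme, which handles branched-chain and bile acid precursors, went the other way (509 ± 12.2 to 401 ± 55.6 CPM, SD, n = 4 each, log2 fold change -0.34, adjusted p = 0.0480, edgeR). The call on Hsd17b4 was lost in 9 of 15 alternatives, among them the fits without any 1 of FXRKO livers 1 to 4 or BCL6LKOFXRKO livers 1 to 3 (adjusted p from 0.0773 to 0.102). Per kilobase, Ehhadh made up 34.1% to 38.1% of the sum of both enzymes in FXRKO livers and 43.3% to 47.8% in BCL6LKOFXRKO livers. The shares did not overlap although the levels of Ehhadh did. This comparison was chosen after the values were seen and was not tested.

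Acaa1b (NM_146230, chromosome 9 from 119148043 to 119157093, minus strand) was at 463, 550.2, 738 and 373 CPM in FXRKO livers and at 236, 197, 383 and 448 CPM in BCL6LKOFXRKO livers. The spread within each genotype was wide, 1.98-fold among FXRKO and 2.27-fold among BCL6LKOFXRKO livers. The means were 531 ± 156 and 316 ± 119 CPM (SD, n = 4 each), a log2 fold change of -0.75 (SE 0.28, adjusted p = 0.0743, edgeR with Benjamini-Hochberg adjustment). The gene was called lower with DESeq2 (-0.75, adjusted p = 0.0201), with limma voom (-0.96, adjusted p = 0.0282), with total counts alone (-0.91, adjusted p = 0.0375) and without FXRKO liver 4 (-0.89, adjusted p = 0.0451, edgeR).

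The level of Acaa1b is uncertain for another reason. Of the 1590 stretches of 100 bases in its transcript, the length of a read, 22.6% also occur in Acaa1a, and reads from them cannot be placed at 1 location. In addition, 11.4% of its exonic bases overlap exons of Dlec1 on the opposite strand, and the counting options name no strand. None of the other 7 genes shared a stretch of this length with another gene. The near-identical thiolase Acaa1a was at 194, 201, 229.7 and 188 CPM in FXRKO livers and at 138, 127, 157 and 274 CPM in BCL6LKOFXRKO livers, a log2 fold change of -0.22 that did not pass the test (adjusted p = 0.454, edgeR). BCL6LKOFXRKO liver 4 was the highest of its genotype for both thiolases, and for Acaa1a it was above all FXRKO livers while the other 3 were below them. Acaa1b made up 67.7% to 77.2% of the 2 thiolases per kilobase in FXRKO livers and 62.1% to 72.0% in BCL6LKOFXRKO livers.

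Pdk4 and Vnn1 stand beside the oxidation pathway itself. Pdk4 phosphorylates and inhibits pyruvate dehydrogenase, which spares glucose while fat is burned. Pdk4 (NM_013743, chromosome 6 from 5483351 to 5496278, minus strand) was counted 68, 37, 40 and 43 times in FXRKO livers and 391, 65, 263 and 248 times in BCL6LKOFXRKO livers, that is at 7.08, 4.62, 4.30 and 4.07 CPM and at 39.4, 7.89, 25.6 and 22.5 CPM. All BCL6LKOFXRKO livers were above all FXRKO livers, but liver 2, at 7.89 CPM, was close to FXRKO liver 1 at 7.08 CPM. The means were 5.02 ± 1.39 and 23.9 ± 12.9 CPM (SD, n = 4 each), a 4.76-fold difference and a log2 fold change of 2.25 (SE 0.44, adjusted p = 0.00523, edgeR with Benjamini-Hochberg adjustment). With total-count CPM the groups overlapped and the exact permutation p was 0.0571, up from 0.0286. The call by edgeR, DESeq2 or limma voom was kept in all 15 alternatives, with log2 fold changes from 1.90 to 2.53.

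Neither Pdk1 nor Pdk2, the other kinases of pyruvate dehydrogenase that were tested, rose with Pdk4. Pdk1 fell (89.9 ± 22.2 to 55.8 ± 13.6 CPM, SD, n = 4 each, log2 fold change -0.69, adjusted p = 0.0196, edgeR), a call that was lost without FXRKO liver 3 or 4 and without BCL6LKOFXRKO liver 1 or 4 (adjusted p from 0.0516 to 0.0903). Pdk2 was at 157 ± 17.0 and 143 ± 13.4 CPM (SD, n = 4 each) and did not pass the test (log2 fold change -0.14, adjusted p = 0.403, edgeR), and Pdk3 did not pass the expression filter. Per kilobase, Pdk4 made up 1.23% to 2.58% of the 4 kinases in FXRKO livers and 3.38% to 13.4% in BCL6LKOFXRKO livers, so Pdk2 and Pdk1 together remained the larger part in every liver.

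Vnn1 encodes vanin 1, a membrane-bound pantetheinase that releases pantothenic acid, the precursor of coenzyme A, and cysteamine. Vnn1 (NM_011704, chromosome 10 from 23894688 to 23905343, plus strand) was at 135, 121, 112 and 144 CPM in FXRKO livers and at 77.8, 93.8, 95.3 and 123 CPM in BCL6LKOFXRKO livers. Of the BCL6LKOFXRKO livers, 3 were below all FXRKO livers, and liver 4 lay above FXRKO livers 2 and 3. The means were 128 ± 14.3 and 97.4 ± 18.6 CPM (SD, n = 4 each), a log2 fold change of -0.40 (SE 0.14) whose adjusted p of 0.0492 (edgeR with Benjamini-Hochberg adjustment) was just inside the threshold. The call was lost in 8 of 15 alternatives. It was lost without FXRKO liver 1, 2 or 4 or BCL6LKOFXRKO liver 1, 2 or 3 (adjusted p from 0.0741 to 0.141), when the normalization left out the 50 genes with most counts (0.0547) and with at least 10 counts required in every liver (0.0624).

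Its family member Vnn3 moved in the opposite direction and by more. Vnn3 was at 63.4, 58.2, 75.7 and 68.2 CPM in FXRKO livers and at 197, 177, 212 and 250.7 CPM in BCL6LKOFXRKO livers, a log2 fold change of 1.66 (SE 0.13, adjusted p = 1.43e-06, edgeR with Benjamini-Hochberg adjustment). Every BCL6LKOFXRKO liver was above every FXRKO liver. Per kilobase, Vnn1 was 52.7% to 61.5% of the sum of Vnn1 and Vnn3 in FXRKO livers and 22.8% to 28.4% in BCL6LKOFXRKO livers, while the sum rose from 90.1 ± 6.30 to 157 ± 23.9 CPM per kilobase (SD, n = 4 each). These family shares were not tested, and the families were named with earlier results known.

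**Figure D2:**
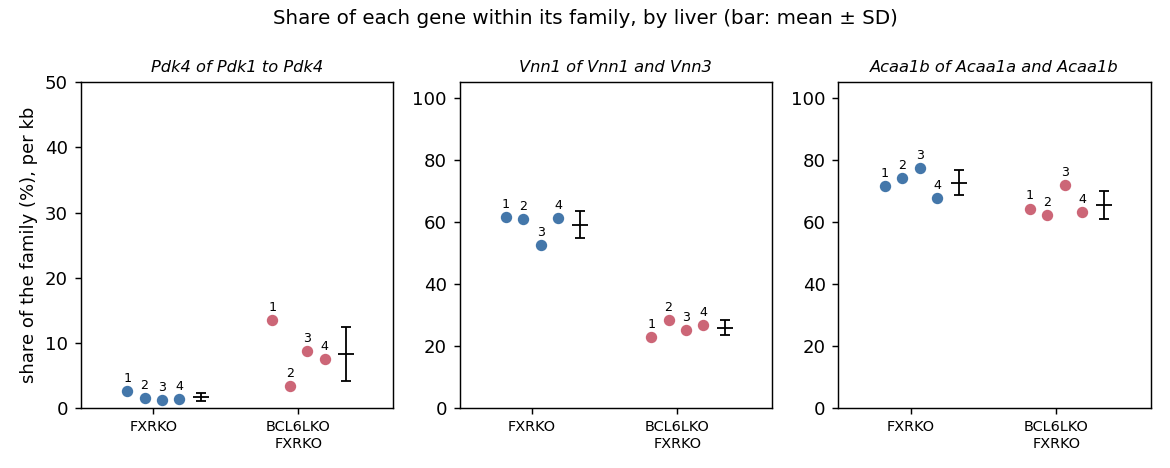
Share, in percent, of Pdk4, Vnn1 and Acaa1b in the summed level of their family per kilobase of transcript, in each liver (numbered points, with mean ± SD of 4 livers as bars). The axis of the Pdk4 panel ends at a lower value than the others. Vnn1 goes from 52.7% to 61.5% down to 22.8% to 28.4%, Pdk4 stays a minor kinase, and the shares of Acaa1b overlap.

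Compared per kilobase of transcript, the levels of the 8 genes in FXRKO livers were in the order Acaa1b (321 CPM per kilobase), Acadm (153), Cpt1a (127), Acadl (117), Ehhadh (106), Cpt2 (79.3), Vnn1 (53.3) and Pdk4 (1.46). In the middle of this order, Cpt1a ran from 88.9 to 155 CPM per kilobase (± 28.3, SD, n = 4), a range that overlapped that of Acadm (148 to 158) and held all livers of Acadl (108 to 127) and Ehhadh (100.4 to 119.7). Acadl and Ehhadh overlapped each other, whereas Acadm was above both in every liver. In BCL6LKOFXRKO livers Acaa1b was still first (191 ± 71.9 CPM per kilobase, SD, n = 4), followed by Ehhadh (129 ± 27.5), Acadm (104 ± 5.52) and Acadl (104 ± 10.7). The range of Ehhadh overlapped those of the other 3 genes, and the lowest Acaa1b liver (119 CPM per kilobase) was above all Acadm and Acadl livers. Cpt2 (69.8 ± 8.07) and Cpt1a (68.8 ± 10.2) also overlapped. Vnn1 (40.5 ± 7.74) and Pdk4 (6.93 ± 3.76) were again last. Acaa1b carries the uncertainty of shared reads given above.

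**Figure D3:**
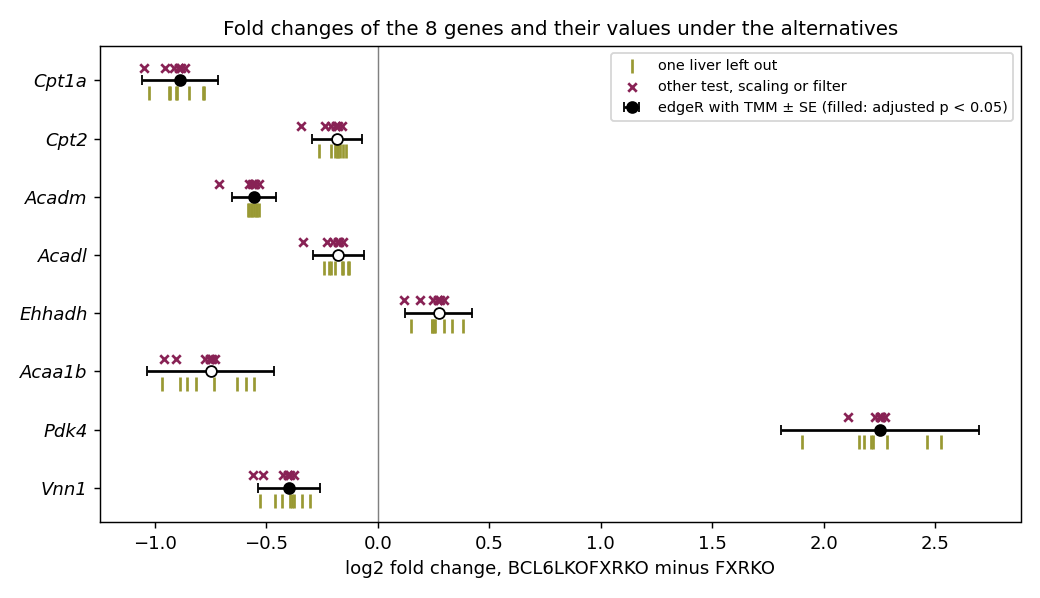
Log2 fold change (BCL6LKOFXRKO minus FXRKO) of the 8 genes with its standard error from edgeR (circles, filled where the adjusted p was under 0.05), with the values under other tests, scalings and filters (crosses) and with each liver left out (ticks). No gene changes sign, and Pdk4 runs from 1.90 to 2.53 while Acadm stays between -0.71 and -0.53.

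Across livers the 8 genes shared their order only in part. BCL6LKOFXRKO liver 4 was the highest of its genotype for 7 of the 8 genes, the exception being Pdk4, and liver 2 was the lowest for 4 of them. Among FXRKO livers, liver 3 was the highest for 4 genes and liver 4 for 3. The summed level of the 8 genes ran from 1991 to 2565 CPM in FXRKO livers and from 1439.5 to 2039 CPM in BCL6LKOFXRKO livers, so it overlapped at BCL6LKOFXRKO liver 4. The pair with the most similar pattern over the 8 livers was Acadl and Cpt2, whose centred log2 CPM differed by 0.12 (root mean square). The least similar pair was Cpt1a and Pdk4 (1.68). Such distances span both genotypes and so include the fold changes between them.

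The gene nearest in pattern over the 8 livers was sought among the tested genes, leaving out predicted genes, unnamed transcripts and pseudogenes by symbol. It was Tk1 for Cpt1a (root mean square difference of 0.09 in centred log2 CPM), Ndufb2 for Cpt2 (0.03), Phyhd1 for Acadm (0.03), Arl16 for Acadl (0.04), Cenpo for Ehhadh (0.07), Spc24 for Acaa1b (0.18), Treh for Pdk4 (0.39) and Mepce for Vnn1 (0.07). The distance was largest for Pdk4 and Acaa1b, the most variable of the 8 genes. These are likenesses among 8 livers, picked from a part of the 12340 tested genes, and were not tested.

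PPAR alpha itself was lower. Ppara was at 205, 264, 269 and 296 CPM in FXRKO livers and at 100.0, 132, 177 and 112 CPM in BCL6LKOFXRKO livers, a log2 fold change of -0.99 (SE 0.17, adjusted p = 0.00104, edgeR with Benjamini-Hochberg adjustment). No liver of one genotype reached the range of the other. Its DNA-binding partner Rxra fell from 605 ± 25.1 to 400.1 ± 63.5 CPM (SD, n = 4 each, log2 fold change -0.60, adjusted p = 0.00365, edgeR).

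Of the 18 genes listed as PPAR alpha and its partners, 2 rose, 4 fell and 12 did not pass the test, with a median log2 fold change of -0.46. Over all tested genes 16.2% were called higher and 13.5% lower, which is the comparison for this list and those below. Both genes that rose are low in liver: Ppard, a related receptor, went from 8.50 ± 1.28 to 13.3 ± 1.57 CPM and Rxrg from 3.23 ± 1.24 to 5.68 ± 1.03 CPM (SD, n = 4 each). The other genes that fell were the corepressor Ncor1 (log2 fold change -0.48, adjusted p = 0.0164) and the coactivator Ncoa1 (-0.39, adjusted p = 0.0384, edgeR). The coactivators Lpin1 (-1.17, adjusted p = 0.0625 by edgeR), Ppargc1b (-1.06, adjusted p = 0.0628) and Ppargc1a (-0.64, adjusted p = 0.307) did not pass the test.

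Of these calls, 3 were lost in some of the fits with a liver left out. That on Rxrg was lost without FXRKO liver 1, 2 or 4 or BCL6LKOFXRKO liver 1, 3 or 4 (adjusted p from 0.0554 to 0.0909) and that on Ncor1 without FXRKO liver 2 (0.0588). That on Ncoa1 was lost without any 1 of the FXRKO livers and without BCL6LKOFXRKO liver 1 or 3 (0.0522 to 0.108). With total counts alone 1 gene of this list was called higher and 10 were called lower.

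The rest of mitochondrial β-oxidation and ketone synthesis went largely one way. Of 23 genes, including 4 of the 8, 12 fell, 0 rose and 11 did not pass the test, with a median log2 fold change of -0.40. Without those 4, 10 of 19 fell. The count of 0 higher is by edgeR. DESeq2 also gave 0 and limma voom 1, and 1 gene was higher at an unadjusted p under 0.05 (edgeR). Besides Cpt1a and Acadm, the genes with the smallest adjusted p were Eci2, an isomerase for unsaturated fatty acids (log2 fold change -1.06, adjusted p = 0.000157), Acat1, the acetoacetyl-CoA thiolase (-0.93, adjusted p = 0.000216), and Bdh1, which makes the ketone body 3-hydroxybutyrate (-0.82, adjusted p = 0.000729, all by edgeR). The thiolase Acaa2 also fell (-0.74, adjusted p = 0.00117).

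Genes of peroxisomal β-oxidation also fell more often than they rose. Of 17 genes, including Ehhadh and Acaa1b, 10 fell, 3 rose and 4 did not pass the test, with a median of -0.49. Leaving out single livers gave 7 to 11 called lower, with 7 without FXRKO liver 1 or 2 or BCL6LKOFXRKO liver 3. Over all tested genes 13.5% were called lower and 16.2% higher, so the 3 rises were near the general share. Scp2, which encodes a thiolase and the sterol carrier protein, fell by 1.45 and the racemase Amacr by 0.90 on the log2 scale. The genes that rose included the importer Abcd2 (2.31) and the carnitine acetyltransferase Crat (1.19).

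Among genes of carnitine and coenzyme A supply, 3 of 20 tested rose, 7 fell and 10 did not pass the test (median log2 fold change -0.27). Acacb, whose product malonyl-CoA inhibits the enzyme encoded by Cpt1a, rose from 108 ± 26.7 to 225 ± 10.7 CPM (SD, n = 4 each, log2 fold change 1.05, adjusted p = 0.000326, edgeR). Its livers did not overlap, with 76.6 to 132 CPM in FXRKO and 210.7 to 236 CPM in BCL6LKOFXRKO livers. The pantothenate kinase Pank1 (-0.94), the peroxisomal carnitine octanoyltransferase Crot (-0.997) and the carnitine importer Slc22a5 (-0.46) fell, as did Cpt1b, the muscle form of Cpt1a, from a low level of 3.70 CPM (-0.85, adjusted p = 0.0379). The call on Cpt1b was lost without FXRKO liver 2, 3 or 4 or BCL6LKOFXRKO liver 1, 2 or 4 (adjusted p from 0.0575 to 0.112, edgeR).

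In the control of pyruvate dehydrogenase, 2 of 10 tested genes rose, Pdk4 among them, 5 fell and 3 did not pass the test (median log2 fold change -0.29). Pdp1, the phosphatase that reverses the action of Pdk4, was the other gene that rose, at a low level (0.882 ± 0.347 to 2.99 ± 1.12 CPM, SD, n = 4 each, log2 fold change 1.76, adjusted p = 0.00297, edgeR). The genes of the enzyme complex that fell included Pdha1 (-0.66), Pdhb (-0.69) and Pdhx (-0.56). An inhibitor and an activator of the complex were higher together, and these components of it were lower.

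Other known targets of PPAR alpha did not share a direction. Of 25 tested genes, 6 rose, 10 fell and 9 did not pass the test, with a median of -0.45. The uncoupling protein Ucp2 (log2 fold change 1.95), the fatty acid translocase Cd36 (0.99) and the acyl-CoA thioesterase Acot4 (2.54) rose, while the retinol saturase Retsat (-0.93) and the fatty acid transporter Slc27a1 (-0.81) fell. Genes of the fasting and feeding response gave 3 of 14 higher and 4 lower (median -0.25). Fgf21, a fasting hormone, was near the limit of detection in FXRKO livers (0 to 7 counts) and had 16 to 36 counts in BCL6LKOFXRKO livers, and Pnpla3 (2.21) and Irs2 (1.35) were also called higher. Scd1 (-1.49) and Mlxipl (-1.08), which are fed-state lipogenic genes, and Pck1 (-1.61), a fasting gene of glucose production, fell.

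The call on Irs2 was lost without FXRKO liver 1, 3 or 4, without BCL6LKOFXRKO liver 1 or 3, with total counts alone and without a filter (adjusted p from 0.0628 to 0.0956, edgeR). Genes raised by fasting and genes raised by feeding moved both ways in this list. Taking each gene of all 7 lists once and leaving out the 8, 42 of 107 tested genes fell and 16 rose, with a median log2 fold change of -0.34. No called gene of these lists changed sign under another scaling, but none could be expected to. Total counts alone, the largest shift, moved the median of all genes by -0.16. The smallest called change in these lists was -0.33 on the log2 scale.

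**Figure D4:**
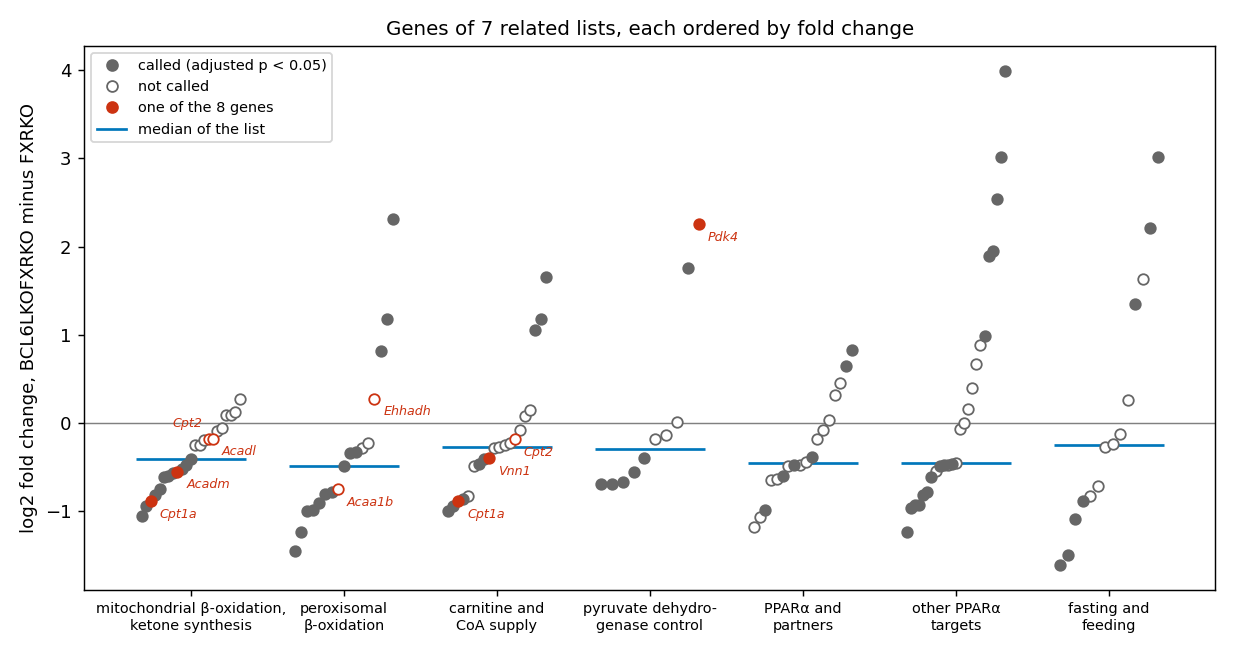
Log2 fold change (BCL6LKOFXRKO minus FXRKO) of every tested gene in 7 related lists, ordered within each list, with filled circles for an adjusted p under 0.05, red for the 8 genes and a blue line for the median of the list. The medians run from -0.49 to -0.25, all below 0, and Pdk4 lies at the upper end of its list while Cpt1a and Acadm lie among the genes that fell.

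Markers of other cell types differed between the same livers. Summed CPM of the hepatocyte markers was 57553 to 69447 in FXRKO livers and 147079 to 165058 in BCL6LKOFXRKO livers, almost entirely through Alb (log2 fold change 1.60), and of the 8 hepatocyte markers 2 were called higher (Alb and Asgr1) and 2 lower (Apob and Ttr). Stellate cell markers summed to 66.1 to 85.6 CPM in FXRKO and 129.7 to 149.6 CPM in BCL6LKOFXRKO livers, and 4 of 6 were called higher. Cholangiocyte markers summed to 41.5 to 65.9 and 74.3 to 134 CPM, mostly through Spp1 (means of 43.4 and 87.2 CPM). Of the 4 tested, 2 were called higher (Spp1 and Krt19). Epcam (log2 fold change 0.78) and Sox9, which went down (-0.81), did not pass the test. Endothelial cell markers (129 to 178 and 165 to 225 CPM) and macrophage markers (240.6 to 312 and 295 to 484 CPM) overlapped in their sums, with 1 of 6 called higher in each. The markers listed for lymphocytes summed to 8.14 to 10.3 and 13.5 to 18.9 CPM, mostly through Ptprc (means of 6.85 and 11.9 CPM). Ptprc, the 1 that was tested, was called higher, but it is not particular to lymphocytes. Cd3e, Cd4, Cd8a, Cd79a and Ms4a1 did not pass the expression filter, so lymphocytes themselves were not assessed. No marker was at 0 in every liver. The part of these shifts in the levels of the 8 genes was not tested.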

How the data were processed

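Liver RNA (polyA, TruSeq stranded library, 100 bp single-end reads) of 4 FXRKO and 4 BCL6LKOFXRKO males was sequenced. The authors aligned the reads to mm10 and deposited raw exonic read counts for 24940 genes, with 1 transcript per gene. The submitters' processing notes name STAR 2.5.2 and HOMER 4.10. Only reads with 1 location were kept, so near-identical genes lose reads, and the stated counting options name no strand, so overlapping genes are uncertain.

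The 8 genes, the 7 lists and the tests were chosen with earlier results of these data known. Named beside the 8 genes were at most 3 called genes per list and direction with the smallest adjusted p, tested PPAR alpha partners, family members, the nearest gene in pattern, Bcl6 and Nr1h4. Some genes given by this rule are not reported here. Livers were grouped by their labels. Replicate numbers are accession order and pair nothing. Each title carries a number of its own, and p-values set the difference between genotypes against the spread between these livers. No liver's counts were within sampling noise of another's (chi-square per degree of freedom 10.0 to 45.8).

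Counts were fitted in R 4.3.3 with edgeR 4.0.16 (filterByExpr, TMM, robust quasi-likelihood test) and Benjamini-Hochberg adjustment over 12340 genes, with calls made at adjusted p under 0.05. The study's methods name DESeq2, which was run as an alternative (1.42.0), as were limma voom (limma 3.58.1), other scalings and filters, and each liver left out. Exact permutation tests were of both tails over 70 orderings of log2 CPM. CPM use TMM factors, and levels per kilobase use the deposited transcript length. Totals of 7586241 to 11839503 counts make genes of a few CPM imprecise. Promoter windows are from RefSeq, and shared 100-base stretches and exon overlaps from GENCODE.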

Additional observations from a re-analysis of the deposited data

Results flagged for a closer look

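Among 86 sets of 4 livers of 1 genotype, for the 8 genes and the others named by rule, 5 held a liver whose gap to the nearest of the other 3 exceeded the Dixon limit of 0.829 of the whole range. Chance alone gives about 1 in 20. Ehhadh in FXRKO liver 3 was at 359 CPM against 301 to 310.3 CPM in the other 3 (gap of 0.846 of the range). Without this liver the log2 fold change of Ehhadh was 0.33 (adjusted p = 0.173, edgeR).

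Bdh1 in BCL6LKOFXRKO liver 4 was at 206 CPM against 143 to 154 CPM (0.831). Ncor1 in FXRKO liver 2 was at 75.6 CPM against 59.6 to 60.6 CPM (0.943), and the call on Ncor1 was lost without it (adjusted p = 0.0588, edgeR). Scd1 in BCL6LKOFXRKO liver 3 was at 2096 CPM against 2916 to 2989 CPM (0.918), and Mlxipl in BCL6LKOFXRKO liver 2 at 219 CPM against 143 to 152 CPM (0.875). No liver was marked for more than 1 of these genes.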

How the results depend on the processing

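Of 15 alternatives, Pdk4, Cpt1a and Acadm kept their call in every one, with log2 fold changes of 1.90 to 2.53, -1.05 to -0.78 and -0.71 to -0.53. No fold change of the 8 genes changed sign. With total counts alone the log2 fold change was -0.91 for Acaa1b (adjusted p = 0.0375), -0.34 for Acadl (0.0405) and -0.34 for Cpt2 (0.0318), so that 6 of the 8 genes and 2949 genes in all were called lower, and among PPAR alpha and its partners 1 was called higher and 10 lower. This scaling moves the median of all genes by -0.16. Acaa1b was also called with DESeq2 (-0.75, adjusted p = 0.0201) and limma voom (-0.96, 0.0282). Vnn1 lost its call when the normalization left out the 50 genes with most counts (-0.39, 0.0547) and with at least 10 counts in every liver (-0.38, 0.0624). In exact permutation tests on total-count CPM the log2 difference was -0.34 for Acadl (p = 0.0286), 1.91 for Pdk4 (p = 0.0571), -0.57 for Vnn1 (p = 0.0286) and -0.35 for Cpt2 (p = 0.0286). The cause of these changes was not tested beyond the scaling itself.

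With single livers left out, the log2 fold change ran from 0.15 to 0.38 for Ehhadh, -0.97 to -0.55 for Acaa1b, -0.53 to -0.30 for Vnn1 and -0.26 to -0.14 for Cpt2. The count called higher among the 8 was 1 to 2, among PPAR alpha and its partners 1 to 2 were higher and 2 to 6 lower, and among carnitine and coenzyme A supply genes 4 to 9 were lower (4 without FXRKO liver 2 or 4 or BCL6LKOFXRKO liver 1). With PPAR alpha and its partners, 2 were lower without FXRKO liver 2, and 1 was higher without FXRKO liver 1, 2 or 4 or BCL6LKOFXRKO liver 1, 3 or 4. Over all genes, 1994 were called higher and 1665 lower, and 1532 to 1850 and 1262 to 1656 with a liver left out. No paired analysis was possible because the labels give no pairing between livers of the 2 genotypes. The title numbers of FXRKO livers 1, 2 and 3 directly precede those of BCL6LKOFXRKO livers 2, 3 and 4, and that of BCL6LKOFXRKO liver 1 lies apart, but what the numbers mark is not stated. Depth limits Pdk4 (37 to 68 counts in FXRKO livers) most of the 8.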
